A study of Mus musculus with 2 samples.

Results

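The genes described here are 10 genes of the epithelial-mesenchymal transition (EMT) and of cadherin adhesion, out of 21591 gene identifiers measured by RNAseq. They were chosen by name and all 10 are in the table: the cadherins *Cdh1*, *Cdh2*, *Cdh3* and *Cdh6*, the intermediate filament gene *Vim*, and the transcription factor genes *Snai2*, *Twist1*, *Twist2*, *Zeb1* and *Zeb2*. Cells came from peeled and dissociated lingual epithelium of *Sox2GFP* reporter mice at P0, the day of birth. Pups were pooled, and cells were sorted by GFP brightness into 1 GFP-high library and 1 GFP-low library of about 100000 cells each. Both populations carry the *Sox2GFP* allele, received no treatment named in the labels and differ in the labels by the sort gate alone. The reporter marks *Sox2* expression rather than a cell type, so each gate can hold several cell types. *Sox2* itself had 112 FPKM in GFP-high and 59.0 FPKM in GFP-low cells, a ratio of 1.90.

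Classical cadherins are calcium-dependent adhesion molecules that join neighbouring cells at adherens junctions and bind catenins inside the cell. E-cadherin (*Cdh1*) and P-cadherin (*Cdh3*) are typical of stratified epithelia, while N-cadherin (*Cdh2*) and cadherin-6 (*Cdh6*) are found in neural, neural crest and mesenchymal cells. The SNAI, ZEB and TWIST families are transcription factors that can repress *Cdh1* and are active in neural crest and mesenchyme, where vimentin (*Vim*) is the usual intermediate filament. SNAI2 is also present in basal keratinocytes.

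Values are FPKM, which are scaled to transcript length, so that levels of different genes can be set side by side. With 1 library per population there is no replicate error, no test and no p-value, and each difference compares these libraries only. A gene was called enriched at 5 FPKM or more in the higher population and a ratio of at least 1.5 over the other. From the steps in low FPKM, the GFP-high values were estimated to rest on about 27000000 reads and those of GFP-low on 32000000, although the labels give about 75000000 reads per sample. These depths are rough, since 53.0% of 466 low values in GFP-high and 47.9% of 476 in GFP-low lay within 0.15 of a whole read. Part of any set of values would lie that close, and the depth with the largest share was taken from many candidates. The percentages therefore support the depths only weakly. Approximate reads and the 95% exact binomial intervals of ratios given below rest on them and cover counting error only.

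The promoter windows of the genes that stood apart are shown first, because EMT factors bind E-boxes (CANNTG), and the SNAI and ZEB proteins prefer CAGGTG, which reads CACCTG on the other strand. RefSeq windows on GRCm38.p6 were found for 5 of the 10 genes, and the 250 bases before the start were searched on both strands. *Zeb2* and *Cdh6* are printed because they had the largest ratios of the 10 genes, and *Twist1* and *Twist2* because they are close relatives whose ratios ran in opposite directions. Each sequence reads 5′ to 3′ toward the start, and capitals mark a CANNTG match. The windows are chr2:45117443-45117692 on the minus strand for the outermost *Zeb2* start, chr15:13173676-13173925 on the minus strand for *Cdh6*, chr12:33957421-33957670 on the plus strand for *Twist1* and chr1:91801211-91801460 on the plus strand for *Twist2*.
Zeb2: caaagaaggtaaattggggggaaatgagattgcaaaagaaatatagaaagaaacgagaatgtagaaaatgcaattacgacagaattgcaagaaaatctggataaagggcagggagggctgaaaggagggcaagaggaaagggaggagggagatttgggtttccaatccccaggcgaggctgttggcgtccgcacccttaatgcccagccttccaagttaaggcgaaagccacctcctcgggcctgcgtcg
Cdh6: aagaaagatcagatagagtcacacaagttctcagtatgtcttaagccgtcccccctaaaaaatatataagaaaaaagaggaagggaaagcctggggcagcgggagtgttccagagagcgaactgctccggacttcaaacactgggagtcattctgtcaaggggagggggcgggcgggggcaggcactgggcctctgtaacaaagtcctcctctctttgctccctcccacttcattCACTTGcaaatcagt
Twist1: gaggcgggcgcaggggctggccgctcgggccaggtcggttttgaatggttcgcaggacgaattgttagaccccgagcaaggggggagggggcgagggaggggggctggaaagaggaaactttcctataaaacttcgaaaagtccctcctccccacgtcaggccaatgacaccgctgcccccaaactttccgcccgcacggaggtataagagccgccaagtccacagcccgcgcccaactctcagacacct
Twist2: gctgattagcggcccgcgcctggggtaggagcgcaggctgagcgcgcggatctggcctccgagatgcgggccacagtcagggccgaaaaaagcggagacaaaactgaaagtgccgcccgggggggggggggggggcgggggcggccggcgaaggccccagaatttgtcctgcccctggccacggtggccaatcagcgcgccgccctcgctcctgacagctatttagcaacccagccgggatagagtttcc

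A CANNTG match was found in 1 of the 8 windows of these 5 genes, the *Cdh6* window, in which CACTTG begins 15 bases before the start. Neither CAGGTG nor CACCTG was in any of the 8 windows, which include 4 starts of *Zeb2* and 1 of *Vim*. Of all 32851 windows of this length, 66.2% held CANNTG and 17.2% held CAGGTG or CACCTG. A match is a description of letters and not a binding site. The *Twist1* and *Twist2* windows were richer in G and C than the others shown, at 62.4% and 68.8% against a median of 52.4% over all windows, with 18 and 23 CpG dinucleotides against a median of 6. The printed *Zeb2* window had 49.6% G and C with 9 CpG, and the *Cdh6* window had 51.2% with 6 CpG.

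Epithelial cadherins were high and close to level in both populations, while *Zeb2*, *Cdh6*, *Vim* and *Cdh2* were lower in GFP-high cells by 6.42-fold to 28.3-fold. These 4 genes were enriched in GFP-low cells, and none of the 10 was enriched in GFP-high cells. Of the 10 genes, 7 reached 5 FPKM in a library and could be called. Among the 10760 genes of the table that reached 5 FPKM in a library, 8.9% were called in the GFP-low direction and 9.48% in the GFP-high direction. On the TPM scale, in which FPKM are divided by the sum of their library, every log2 ratio falls by 0.10 and the split over the genes called moves from 51.6% to 39.8% in the GFP-high direction, with the calls among the 10 genes as before. Ranked by ratio among the 958 genes enriched in GFP-low cells, *Zeb2* was at rank 30, *Cdh6* at rank 48, *Vim* at rank 107 and *Cdh2* at rank 117.

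**Figure D1:**
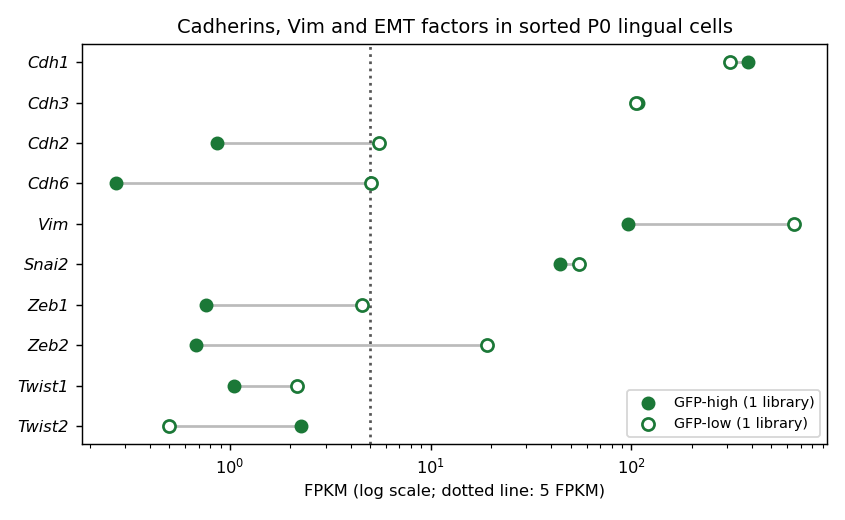
FPKM of the 10 genes (log axis) in the GFP-high library (filled) and the GFP-low library (open), 1 library each, with a dotted line at 5 FPKM. *Cdh1*, *Cdh3* and *Snai2* lie nearly on top of each other in the libraries, 6 genes lie well to the right in GFP-low, and *Twist2* alone lies well to the right in GFP-high.

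*Cdh1* (ENSMUSG00000000303, chromosome 8, 106603351–106670246) encodes E-cadherin, the main cadherin of epithelial adherens junctions. It had 382 FPKM in GFP-high and 309 FPKM in GFP-low cells, a ratio of 1.23. *Cdh3* (ENSMUSG00000061048, chromosome 8, 106510891–106557297), its neighbour on the chromosome and the P-cadherin gene of basal epithelial layers, had 108 FPKM in GFP-high and 106 FPKM in GFP-low cells. The *Cdh3* ratio was 1.02 as deposited and turned below 1 on the TPM scale, with a log2 ratio of -0.07, so no order of the populations can be read for it. Neither gene reached a ratio of 1.5. *Cdh1* was at 3.54 times the FPKM of *Cdh3* in GFP-high cells and 2.93 times in GFP-low cells.

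*Cdh2* (ENSMUSG00000024304, chromosome 18, 16588877–16809246), the N-cadherin gene, had 0.86 FPKM in GFP-high and 5.52 FPKM in GFP-low cells. It was 6.42-fold higher in GFP-low cells (95% counting interval 5.25 to 7.91, from about 109 and 820 reads). *Cdh6* (ENSMUSG00000039385, chromosome 15, 13028701–13173675) had 0.27 FPKM in GFP-high and 5.05 FPKM in GFP-low cells, with an 18.7-fold difference (14.4 to 24.7, from about 59 and 1287 reads). Both genes sat just above the 5 FPKM minimum in GFP-low cells, and *Cdh6* fell below it once GFP-low values were multiplied by 0.973, the median ratio between the libraries. The FPKM of *Cdh1* was 444 times that of *Cdh2* in GFP-high cells and 56.0 times in GFP-low cells. N-cadherin RNA was therefore a small quantity beside E-cadherin RNA in either population.

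Over the 17 classical cadherins in the table, 4 of type I and 13 of type II, the summed level was 519 FPKM in GFP-high and 466 FPKM in GFP-low cells. *Cdh1* made up 73.6% of that sum in the GFP-high and 66.3% in the GFP-low population, and *Cdh3* made up 20.8% and 22.7%. All cadherins other than *Cdh1* and *Cdh3* together made up 5.64% in GFP-high cells, or 29.2 FPKM. In GFP-low cells they made up 11.0%, or 51.4 FPKM. *Cdh2* contributed 0.166% of the sum in the GFP-high and 1.18% in the GFP-low population, and *Cdh6* 0.0521% and 1.08%.

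The other 13 classical cadherins did not share 1 direction: 6 were higher in the GFP-high and 7 in the GFP-low population, with a median difference of -0.01 in log2(FPKM + 1), GFP-high minus GFP-low, which turned to 0.01 under the median-ratio scaling. Most of those higher in GFP-high, and some of those higher in GFP-low, were under 0.3 FPKM in both populations. Among those with a mean of at least 1 FPKM the median was -0.49, so the near-even split rests largely on very low values. The median over all 17283 genes above 0 was -0.02, with 7883 higher in GFP-high and 9254 in GFP-low by any amount. Of these 13, 4 reached 5 FPKM, 2 were enriched in GFP-low and 1 in the GFP-high population. Over all genes that reached 5 FPKM, 8.9% and 9.48% were enriched in these directions. *Cdh19*, a type II cadherin known from Schwann cell precursors, had 0.12 FPKM in GFP-high and 7.68 FPKM in GFP-low cells, a difference of 64.0-fold, larger than that of *Cdh6*. *Cdh4*, the R-cadherin gene, had 6.07 FPKM in GFP-high and 12.7 FPKM in GFP-low cells, with a 2.09-fold difference. The exception was *Cdh11*, a cadherin of mesenchymal cells and osteoblasts, with 8.20 FPKM in GFP-high and 5.39 FPKM in GFP-low cells. Its ratio of 1.52 was just above the minimum of 1.5. It fell below that minimum on the TPM scale and with a pseudocount of 1. *Cdh24* was the most abundant type II cadherin in both populations by FPKM, at 8.80 in the GFP-high and 8.99 in the GFP-low population.

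**Figure D2:**
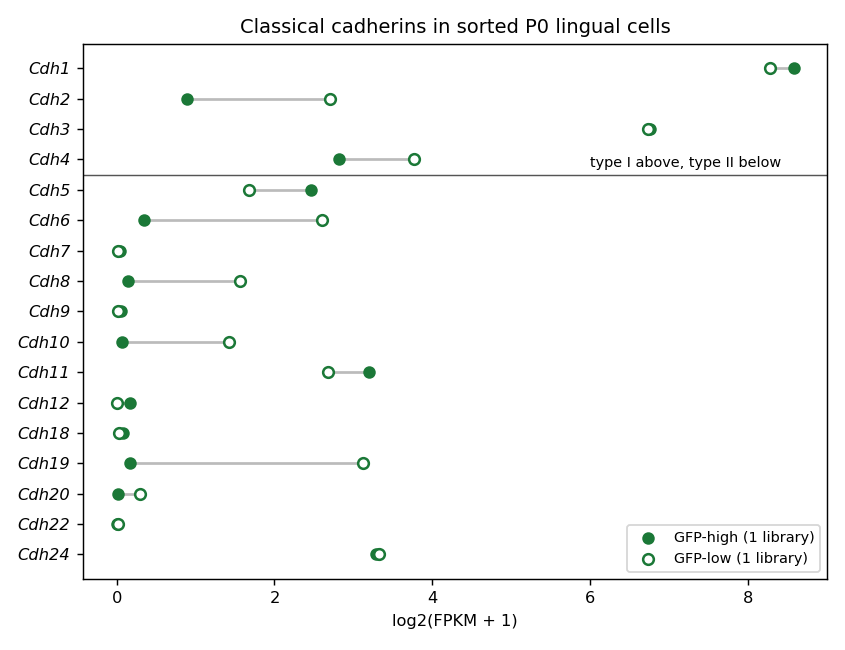
Levels of 17 classical cadherins as log2(FPKM + 1), with type I genes above the line and type II genes below it, in the GFP-high library (filled) and the GFP-low library (open), 1 library each. *Cdh1* and *Cdh3* stand far to the right of the rest, *Cdh2*, *Cdh4*, *Cdh6*, *Cdh8*, *Cdh10* and *Cdh19* extend to the right in GFP-low, and *Cdh11* and *Cdh5* lie further right in GFP-high.

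*Vim* (ENSMUSG00000026728, chromosome 2, 13573927–13582826) encodes vimentin, the type III intermediate filament of mesenchymal cells. It had 96.0 FPKM in GFP-high and 645 FPKM in GFP-low cells, with a 6.72-fold difference, and was the only 1 of the 4 enriched genes at 5 FPKM or more in both populations. The order of *Vim* and *Cdh1* changed between the populations. *Cdh1* was at 3.98 times the FPKM of *Vim* in GFP-high cells, whereas *Vim* was at 2.09 times the FPKM of *Cdh1* in GFP-low cells. By level among the 17283 genes above 0, *Vim* was at rank 2015 in GFP-high cells and rank 162 in GFP-low cells, while *Cdh1* was at ranks 348 and 417. No 50-nt window of the *Vim*, *Cdh1*, *Cdh2* or *Cdh3* transcripts occurs in a transcript of another gene.

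The other type III and IV intermediate filament genes were at low levels, and none of the 8 reached 5 FPKM. Of these 8, 7 were higher in GFP-low cells, against 9254 of all 17283 genes above 0, with a median difference of -0.37 in log2(FPKM + 1). *Nes*, which encodes nestin, had the highest level of the list in GFP-low cells, 4.70 FPKM, against 1.52 FPKM in the other population. *Synm*, which encodes synemin, led in GFP-high cells at 2.79 FPKM, against 1.82 FPKM.

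*Snai2* (ENSMUSG00000022676, chromosome 16, 14705852–14709385) had the highest level of the 5 EMT transcription factor genes in both populations, at 44.3 FPKM in GFP-high and 54.8 FPKM in GFP-low cells. Its ratio was 1.24 in the GFP-low direction and did not pass 1.5 under any alternative. *Zeb2* (ENSMUSG00000026872, chromosome 2, 44983632–45117395) had 0.68 FPKM in GFP-high and 19.2 FPKM in GFP-low cells. The *Zeb2* difference of 28.3-fold (95% counting interval 24.2 to 33.2, from about 165 and 5489 reads) was the largest of the 10 genes. *Snai2* was at 65.1 times the FPKM of *Zeb2* in GFP-high cells and 2.85 times in GFP-low cells. *Zeb2* overlaps the antisense gene *Zeb2os*, and 2.26% of its 50-nt windows occur in transcripts of other genes.

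*Zeb1* (ENSMUSG00000024238, chromosome 18, 5591860–5775467), the paralogue of *Zeb2*, had 0.76 FPKM in GFP-high and 4.56 FPKM in GFP-low cells. The 6.0-fold difference (4.93 to 7.35, from about 116 and 817 reads) was close in size to that of *Cdh2*, but the GFP-low level was just under the minimum of 5 FPKM and *Zeb1* was not called. Of its 50-nt windows, 1.76% occur in transcripts of other genes. The ZEB genes were near level with each other in GFP-high cells, where *Zeb1* was at 1.12 times the FPKM of *Zeb2*. In GFP-low cells *Zeb2* was at 4.21 times the FPKM of *Zeb1*.

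*Twist1* and *Twist2*, which encode closely related basic helix-loop-helix factors of mesenchyme, were low in both populations and lay on opposite sides. *Twist1* (ENSMUSG00000035799, chromosome 12, 33957671–33959829) had 1.05 FPKM in GFP-high and 2.17 FPKM in GFP-low cells, with a 2.07-fold difference (1.42 to 3.05, from about 41 and 99 reads). *Twist2* (ENSMUSG00000007805, chromosome 1, 91801461–91848028) had 2.27 FPKM in GFP-high and 0.50 FPKM in GFP-low cells, a ratio of 4.54 in the GFP-high direction (3.14 to 6.70, from about 144 and 37 reads). *Twist2* was thus the only 1 of the 10 genes with a ratio over 1.5 in the GFP-high direction, at a level too low to be called. Its value carries a further uncertainty, because 45.7% of its 50-nt windows also occur in *Gm29100*, a gene annotated on the opposite strand that overlaps its exons. The libraries were stranded according to the labels, but whether strand was used in the FPKM is not given in the sources used here. *Twist2* was at 2.16 times the FPKM of *Twist1* in GFP-high cells, and *Twist1* at 4.34 times that of *Twist2* in GFP-low cells.

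**Figure D3:**
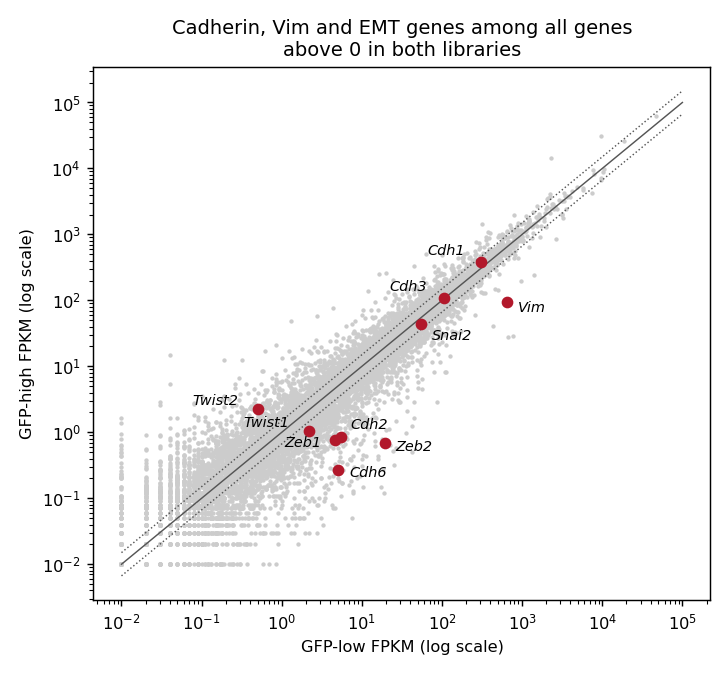
FPKM in the GFP-low library (x axis) and the GFP-high library (y axis), both on log axes, for all genes above 0 in both (grey) and the 10 genes (red), with a solid line at equal FPKM and dotted lines at a 1.5-fold difference. *Vim*, *Zeb2*, *Cdh6*, *Cdh2*, *Zeb1* and *Twist1* lie below the lower dotted line and *Twist2* above the upper one.

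Without the FPKM minimum, 6 of the 10 genes passed a ratio of 1.5 toward GFP-low and 1 toward GFP-high. Over all 17283 genes above 0, 18.8% were so in the GFP-low direction and 18.1% in the GFP-high direction. With the minimum of 5 FPKM required in both populations, *Vim* was the only gene of the 10 called. Of the 10016 genes that could then pass, 6.32% were called toward GFP-low and 7.76% toward GFP-high. The median difference over the 10 genes was -1.14 in log2(FPKM + 1), against -0.02 over all genes above 0. In decreasing FPKM the order in GFP-high cells was *Cdh1*, *Cdh3*, *Vim*, *Snai2*, *Twist2*, *Twist1*, *Cdh2*, *Zeb1*, *Zeb2* and *Cdh6*. In GFP-low cells it was *Vim*, *Cdh1*, *Cdh3*, *Snai2*, *Zeb2*, *Cdh2*, *Cdh6*, *Zeb1*, *Twist1* and *Twist2*. In the absence of replicates, neighbours in these orders cannot be ranked beyond counting error.

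None of the 10 other EMT transcription factor genes of a further list was enriched in either population, and 4 of them reached 5 FPKM. For all genes that reached 5 FPKM, the shares enriched were 8.9% (GFP-low) and 9.48% (GFP-high). The median difference of the 10 was -0.18 in log2(FPKM + 1). By any amount, 8 of 10 were higher in GFP-low cells, against 9254 of all 17283 genes above 0. Ratios over 1.5 toward GFP-low were those of *Prrx1*, a mesenchymal homeobox gene (0.69 and 2.11 FPKM, 3.06-fold), *Gsc* (0.23 and 0.47 FPKM, 2.04-fold) and *Klf8* (2.37 and 3.94 FPKM, 1.66-fold), all at levels under the minimum for a call. *Tcf3*, whose E2A proteins bind E-boxes, had the highest FPKM of the list, 132 in the GFP-high and 131 in the GFP-low population. *Snai1*, the relative of *Snai2* most often tied to EMT, had 1.07 FPKM in GFP-high and 1.26 FPKM in GFP-low cells. *Snai2* was therefore the SNAI gene with the higher level in these cells, since *Snai3* was at 0.51 and 0.60 FPKM.

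Most adherens junction partners were expressed at high levels in both populations alongside *Cdh1*. Of the 14 genes of this list, 12 reached 5 FPKM, 2 were enriched in the GFP-high and 1 in the GFP-low population. Over all genes that reached 5 FPKM, 9.48% and 8.9% were enriched in these directions. The median difference of the list was 0.10 in log2(FPKM + 1). *Jup*, which encodes plakoglobin, had the highest FPKM, 1620 in the GFP-high and 1220 in the GFP-low population. *Ctnnb1*, which encodes β-catenin, had 1329 FPKM in GFP-high and 1202 FPKM in GFP-low cells. *Afdn* (afadin, listed under *Mllt4*) at 331 and 213 FPKM and *Nectin4* (listed under *Pvrl4*) at 197 and 107 FPKM were the genes enriched in GFP-high cells. Their ratios were 1.55 and 1.84, and that of *Afdn* fell below 1.5 on the TPM scale. *Nectin3* (listed under *Pvrl3*) was enriched in GFP-low cells, at 4.19 FPKM in GFP-high and 7.22 FPKM in GFP-low cells.

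Of genes that maintain the epithelial state, 7 of 14 were enriched in GFP-high cells, against 9.48% of all genes that reached 5 FPKM. All 14 reached 5 FPKM, 12 were higher in GFP-high cells by any amount and none was enriched in GFP-low cells, with a median difference of 0.70 in log2(FPKM + 1). Over all 17283 genes above 0, 7883 were higher in GFP-high cells by any amount. *Elf3*, an epithelial ETS factor, had 115 FPKM in GFP-high and 38.3 FPKM in GFP-low cells, a ratio of 3.0. *Cldn7*, a claudin, had a ratio of 2.74 and *Spint1*, a membrane protease inhibitor, 2.16. *Epcam*, an epithelial adhesion molecule, had 166 FPKM in GFP-high and 86.8 FPKM in GFP-low cells, a ratio of 1.91. *Rab25*, which encodes a vesicle GTPase of epithelia, had the highest FPKM of the list, 904 and 505. The genes higher in GFP-low cells were *Ovol2* (9.17 and 12.5 FPKM) and *Grhl2* (79.2 and 90.0 FPKM), both epithelial transcription factors, at ratios under 1.5. Their relatives ran the other way. *Ovol1* (98.7 and 54.8 FPKM) and *Grhl3* (168 and 88.6 FPKM) were enriched in GFP-high cells, at ratios of 1.80 and 1.90, and *Grhl1* had a ratio of 1.49. *Esrp1*, an epithelial splicing factor, was at 326 and 288 FPKM, a ratio of 1.13 beside 1.23 for *Cdh1*.

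Among 11 mesenchymal effector genes, 10 were higher in GFP-low cells, 5 of them enriched there, and none was enriched in GFP-high cells. The median difference of the 11 was -0.61 in log2(FPKM + 1). Over all 17283 genes above 0, 9254 were higher in GFP-low cells, and 8.9% of the genes that reached 5 FPKM were enriched there. *Sparc*, a matrix glycoprotein with the highest FPKM of the list, had 438 FPKM in GFP-high and 897 FPKM in GFP-low cells, with a 2.05-fold difference. *Acta2*, which encodes smooth muscle actin, was 3.03-fold higher in GFP-low cells, *S100a4* 2.04-fold and *Fn1*, which encodes fibronectin, 1.54-fold. These differences were smaller than those of *Vim*, *Cdh2*, *Cdh6* and *Zeb2*.

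Markers of other cell types also differed between the libraries, some lists in the GFP-low and some in the GFP-high direction. In bulk libraries fewer cells of a type and less RNA per cell cannot be told apart. The marker counts below stand beside 9254 genes higher in GFP-low and 7883 in GFP-high of all 17283 above 0. Of genes that reached 5 FPKM, 8.9% were enriched in GFP-low and 9.48% in GFP-high cells. All 8 Schwann lineage and neural crest markers were higher in GFP-low cells, and 6 of the 7 that reached 5 FPKM were enriched there. Summed levels of the 8 were 75.9 FPKM in GFP-high and 303 FPKM in GFP-low cells. None of the 8 was at 0 in either library. *Foxd3* (0.12 and 19.0 FPKM), *Sox10* (0.51 and 42.7 FPKM) and *Ednrb* (0.69 and 19.9 FPKM) differed by 158-fold, 83.8-fold and 28.8-fold, beside 28.3-fold for *Zeb2* and 18.7-fold for *Cdh6*. The study picked *Foxd3*, *Sox10*, *Ednrb*, *Zeb2* and *Cdh6* from these same libraries as markers of connective tissue, so their direction here is no independent evidence. Apart from the libraries, the study reported *Foxd3* by qPCR in GFP-low cells only. It also described low SOX2 or reporter signal in some mesenchymal cells on sections. *Erbb3*, a neuregulin receptor that epithelia also express, was near level at 60.3 and 66.9 FPKM. The part of Schwann lineage and neural crest cells in the values of *Zeb2*, *Cdh6* and *Cdh2* was not tested.

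Of 8 fibroblast markers, 7 were higher in GFP-low cells, and 5 of the 6 that reached 5 FPKM were enriched there. Summed levels of the 8 were 430 FPKM in GFP-high and 1835 FPKM in GFP-low cells. *Col3a1* had the highest FPKM, 193 in the GFP-high and 966 in the GFP-low population, a 5.0-fold difference beside 6.72-fold for *Vim*. *Col1a1* and *Col1a2* were 4.99-fold and 5.02-fold higher in GFP-low cells and *Dcn*, which encodes decorin, 3.52-fold. *Pdgfra*, a receptor that defines many fibroblasts, was near level at 1.42 and 1.46 FPKM, and none of the 8 was at 0. The part of fibroblasts in the *Vim* difference was not tested.

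Mast cell and endothelial markers ran the other way, as *Twist2* and *Cdh11* did. All 4 mast cell markers were higher in GFP-high cells, with summed levels of 28.2 FPKM and 5.34 FPKM. The 3 that reached 5 FPKM were enriched there. *Tpsb2*, a mast cell tryptase, had the highest FPKM, 10.7 in the GFP-high and 2.35 in the GFP-low population, a ratio of 4.53, while *Cpa3* and *Mcpt4* had ratios of 5.95 and 5.93. Of 7 endothelial markers, 6 were higher in GFP-high cells, with summed levels of 32.1 and 23.8 FPKM. Of the 2 that reached 5 FPKM, *Pecam1* (5.31 and 2.38 FPKM) was enriched in GFP-high cells. *Egfl7* had the highest FPKM of the endothelial markers, 18.5 and 15.9. *Cdh5*, the VE-cadherin gene of endothelial cells and a type II cadherin, had 4.51 FPKM in GFP-high and 2.19 FPKM in GFP-low cells. None of these mast cell and endothelial markers was at 0, and their part in the *Twist2* and *Cdh11* values was not tested.

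Other marker lists were mixed. Of 6 melanocyte markers, *Tyr* was at 0 in both libraries and *Mlana* in the GFP-high library, and the summed levels were 18.5 and 3.91 FPKM. *Mitf*, the only enriched gene of the list, had 17.2 and 1.24 FPKM and carried the direction of that sum. *Dct* (0.23 and 0.91 FPKM), *Tyrp1* (0.04 and 0.88 FPKM) and *Mlana* (0 and 0.15 FPKM) were higher in GFP-low cells. Skeletal muscle markers summed to 19.6 and 18.2 FPKM, with *Tnnt3* enriched in GFP-high cells at 8.58 and 5.05 FPKM, and none of the 6 macrophage and leukocyte markers was enriched, with summed levels of 18.3 and 19.2 FPKM. *Cd68* had the highest FPKM of the leukocyte list, 14 and 15.3, and *Ptprc*, the defining leukocyte antigen, was at 0.06 and 0.02 FPKM. *Cd52* was at 0 in 1 library.

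All 7 basal keratinocyte markers were higher in GFP-low cells, and only *Itgb4* (424 and 664 FPKM) passed a ratio of 1.5. The highest of them, *Krt5*, had 9667 FPKM in GFP-high and 10422 FPKM in GFP-low cells. Of 7 suprabasal markers, 6 were higher in GFP-high cells, and 3 of the 6 that reached 5 FPKM were enriched there, with *Krt13* at 30523 and 9738 FPKM. The exception was *Ivl*, which encodes involucrin, at 0.67 and 2.19 FPKM. All 5 taste bud and taste precursor markers were enriched in GFP-high cells, with *Lrmp* at 257 and 19.8 FPKM. The study also picked these taste genes from the same libraries, so their direction here is no independent evidence. On sections, the study separately described high SOX2-GFP in taste buds and the cells around them. By qPCR of sorted cells, it also reported a gene of this taste list as higher in GFP-high cells. *Cdh1* and *Cdh3* had ratios of 1.23 and 1.02 between populations that differed by 12.98-fold for *Lrmp* and 6.11-fold for *Krt4*.

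**Figure D4:**
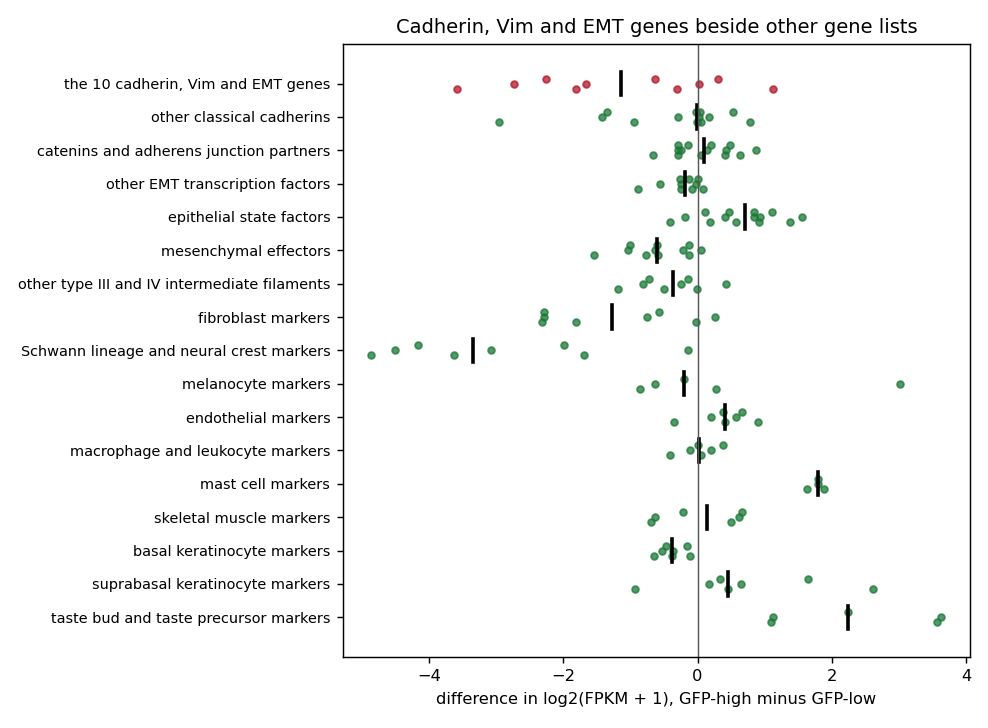
Difference in log2(FPKM + 1), GFP-high minus GFP-low, for each gene of the 10 (red) and of 16 other lists (green), with a black bar at each list's median. The 10 genes span from *Zeb2* at -3.59 to *Twist2* at 1.12, with most Schwann lineage and fibroblast markers to the left of 0 and mast cell and taste markers to the right.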

How the data were processed

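RNA from 1 library of GFP-high and 1 library of GFP-low cells was sequenced as single-end reads of 50 nt. The authors trimmed reads with Trimmomatic 0.36, mapped them to mm10 with GSNAP, computed FPKM (fragments scaled to transcript length and to mapped fragments) with Cufflinks 2.2.1 and deposited them to 2 decimals. The columns are named means, but the labels give 1 library each. A column of signed fold scores, deposited by the authors beside the FPKM, was not used. Entries typed as non-coding in GENCODE M21 (21) and entries without a number were left out, which left 21590, compared by FPKM, ratio and log2 ratio with Python 3.11.15, pandas 2.3.3 and numpy 2.4.6. The calling code was tested on simulated data, with changes planted only well above the minimums of 5 FPKM and a ratio of 1.5.

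A call needed a ratio of 1.5 or more, with 5 FPKM or more in the higher population. The methods of the study word the minimum as 5 FPKM in each sample, but its enriched genes include *Zeb2* and *Cdh6*, which are under 5 FPKM in GFP-high. Under that wording *Vim* alone of the 10 genes is called. Lists were described by counts and the median difference in log2(FPKM + 1). The genes and lists were chosen with earlier results of these data known. Named genes were the 10 genes and, for each other list, the called genes (at most 4 per direction), the gene with the highest FPKM and markers at 0, except 1 gene that is not reported here. *Snai1*, *Snai3*, *Prrx1*, *Gsc*, *Klf8*, *Ovol1*, *Ovol2*, *Grhl1*, *Grhl2*, *Grhl3*, *Ivl*, *Dct*, *Tyrp1*, *Cdh5*, *Cdh24*, *Esrp1*, *Ctnnb1*, *Pdgfra*, *Erbb3*, *Synm*, *Ptprc*, *Cd52* and *Mlana* fall outside this rule and were chosen with their values known.

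Depth was sought as the number of reads at which FPKM up to 0.3, times exon length less 200 nt, fell within 0.15 of whole reads, in genes with 1 transcript of 400 to 2500 nt. Whole reads were not recovered, and no count test was run. Alternatives were other FPKM minimums (1, 10, none and 5 in both), a ratio of 2, pseudocounts of 1 and 0.1, TPM, the median ratio of the libraries, and lists limited to a mean of 1 FPKM.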

Additional observations from a re-analysis of the deposited data

How the results depend on the processing

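The direction of 9 of the 10 genes was the same under both scalings and both pseudocounts. The exception was *Cdh3*, whose log2 ratio became -0.07 on the TPM scale. The number of the 10 genes enriched in GFP-low cells was 4 as reported, 2 (*Vim* and *Zeb2*) with a minimum of 10 FPKM and 1 (*Vim*) with 5 FPKM in both populations. It was 3 with the median-ratio scaling, which put *Cdh6* under 5 FPKM. With a minimum of 1 FPKM or none, *Zeb1* and *Twist1* were added and the number higher in GFP-high cells became 1 (*Twist2*). Over all genes, the calls as reported were 958 in GFP-low and 1020 in GFP-high, or 8.9% and 9.48% of the genes that could pass. They were 1563 and 1540 (12.1% and 11.9%) with a minimum of 1 FPKM and 707 and 820 (7.53% and 8.74%) with 10 FPKM. With no minimum they were 3248 and 3131 (18.8% and 18.1%), and at a ratio of 2 they were 467 and 448 (4.34% and 4.16%). They were 633 and 777 (6.32% and 7.76%) with 5 FPKM in both populations and 856 and 1107 (7.97% and 10.3%) with the median-ratio scaling. On the TPM scale they were 1219 and 807 (11.4% and 7.54%), which reversed the balance. The median difference of the other classical cadherins turned to 0.01 when GFP-low was scaled by the median ratio. It moved to -0.49 with a mean of at least 1 FPKM. Under the same limit that of the melanocyte markers turned to 3.02, which left *Mitf* alone. No replicate could be left out, because each population has 1 library. Both libraries were sorted from the same pooled pups and so form 1 pair, which allows no paired analysis. The rough depth limits the lowest values most: about 37 reads for *Twist2* in GFP-low cells, and 41 for *Twist1* and 59 for *Cdh6* in GFP-high cells.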
